A study of Homo sapiens with 8 samples.

Results

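The RNA of 9 enzymes, most of them of nonessential amino acid metabolism, was followed in cells that had become resistant to auxin-induced degradation of CTCF. The genes were *ASNS*, *ALDH18A1*, *PYCR1*, *OAT*, *CTH*, *CBS*, *GPT2*, *PCK2* and *GOT1*, taken by gene symbol from a table of 60754 rows, in which each was found. All 9 passed the filter on low values and were among the 15614 genes tested. The libraries came from CTCF-AID2 SEM cells. SEM is a cell line from a human acute lymphoblastic leukemia of B-cell type. In the CTCF-AID2 cells both alleles of *CTCF* carry a miniAID-mClover3 tag, and a lentiviral cassette with the MND promoter expresses OsTIR1(F74G) together with Zeocin resistance. OsTIR1(F74G) directs tagged CTCF to the proteasome when the auxin analog 5-Ph-IAA is present. The 2 clones studied, C17.2 and C3.2, each grew from a single sorted cell, and each had 2 libraries of untreated parental cells and 2 of resistant cells. The labels give the treatment as 1 μM 5-Ph-IAA, with or without 100 μg/ml Zeocin, up to day 36. The study describes the resistant cells of both clones as treated with both agents and then taken off them for 48 h, and the parental cells as untreated. The libraries were matched to that account by clone and state, since the study cites its RNA-seq under another series number. By the account of the study, C17.2 resistant cells make a truncated CTCF without the tag from a nonsense mutation, and C3.2 resistant cells carry a missense mutation inside the miniAID tag of full-length CTCF. The resistant cells of a clone therefore differ from its parental cells in past treatment, mutation and time in culture together, which cannot be told apart here.

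Cells can make most nonessential amino acids from glucose and glutamine carbon. Asparagine synthetase, encoded by *ASNS*, adds an amide group to aspartate, and GOT1 is the aspartate aminotransferase of the cytosol. Lymphoblastic leukemia cells often make little asparagine for themselves, which is why the drug asparaginase, which removes asparagine from blood, is used against this disease. Proline is made from glutamate by the synthase encoded by *ALDH18A1* and then the reductase PYCR1, or from ornithine by OAT. CBS and CTH form the transsulfuration pathway, which turns homocysteine into cysteine. When amino acids run short, kinase signaling to the translation factor eIF2 raises translation of the transcription factor ATF4, which binds C/EBP-ATF response elements, and *ASNS* is its best known target.

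The values deposited are TPM, a measure of RNA abundance that corrects for transcript length and for the total of a library but keeps no sequencing depth, so the depth is unknown. Protein-coding genes took 36.0% to 43.3% of the TPM of a library. The libraries were therefore scaled further, with factors of 0.893 to 1.16. The test was limma, a linear model that shares its estimate of the spread across genes, on log2 of the scaled TPM plus 1. Log2 fold changes are given on that scale, on which the changes of weakly expressed genes come out too small, and p-values were adjusted over all tested genes. Nothing in the labels states that the 2 libraries of a group came from separate cultures, so p-values measure the spread between these libraries, which may be technical. Pearson's r across genes between the libraries of a group was 0.968 to 0.979. Of 12 B-cell markers, 9 reached at least 1 TPM in every library, while *CD24*, *BLNK* and *DNTT* were below it. Of the 9, 5 fell in each clone and 1 rose in C3.2, with *IGLL1*, of the surrogate light chain, lowest at -2.16 and -2.35. The summed level of the list was 842 to 893 TPM in C17.2 parental, 781 to 786 in C17.2 resistant, 827 to 882 in C3.2 parental and 707 to 742 in C3.2 resistant cells. Markers of T and NK, myeloid, erythroid and stromal or epithelial cells reached at most 14.2, 2.34, 0.32 and 7.45 TPM for a single gene, and *CD3D*, *COL1A2*, *DCN* and *EPCAM* were listed at 0 in all libraries. Of these lists, *NKG7* and *COL1A1* were the genes called higher in C17.2 resistant cells. *CSF1R* was called lower there, and no gene of the 4 lists was called in C3.2 (limma, 1 at an unadjusted p under 0.05). Across the T and NK list, the sum was 7.95 to 9.56 TPM in parental and 13.8 to 14.2 TPM in resistant cells of C17.2. For the stromal and epithelial list the sums were 2.8 to 3.04 and 6.5 to 7.52 TPM. The part of these markers in the results was not tested.

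In C17.2, 7 of the 9 enzymes fell in resistant cells and 2 rose. Of all tested genes, 13.9% were called lower and 13.4% higher in this clone. In C3.2, 6 of the 9 fell and 3 were not called (limma, with unadjusted p of 0.559 for *ALDH18A1*, 0.0872 for *PYCR1* and 0.0400 for *GOT1*), against 6.9% of all tested genes called lower and 4.46% called higher. Without C3.2 parental 1, or with C3.2 fitted alone, 3 were called lower, *ASNS*, *OAT* and *GPT2*. The median log2 fold change of the 9 was -1.39 in C17.2 and -0.44 in C3.2, where the median of all tested genes was 0 in both. The changes themselves differed between the clones for 6 of the 9 enzymes, *ASNS*, *OAT*, *CTH*, *GPT2*, *PCK2* and *GOT1*, against 9.91% of all tested genes. The split of calls over all genes depended on the scaling. Genes called higher made up 49.1% of calls in C17.2 and 39.3% in C3.2, but 75.1% and 57.8% with TPM as deposited, which also raised the median of all genes by 0.13 in C17.2. The shares were 64.6% and 69.7% when TPM were rescaled over protein-coding genes and 54.1% and 50.8% after quantile normalization. Within each clone, each of the 9 enzymes kept the sign of its change under all 4 scalings. In bulk RNA, less RNA per cell and fewer cells that express a gene cannot be told apart.

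**Figure D1:**
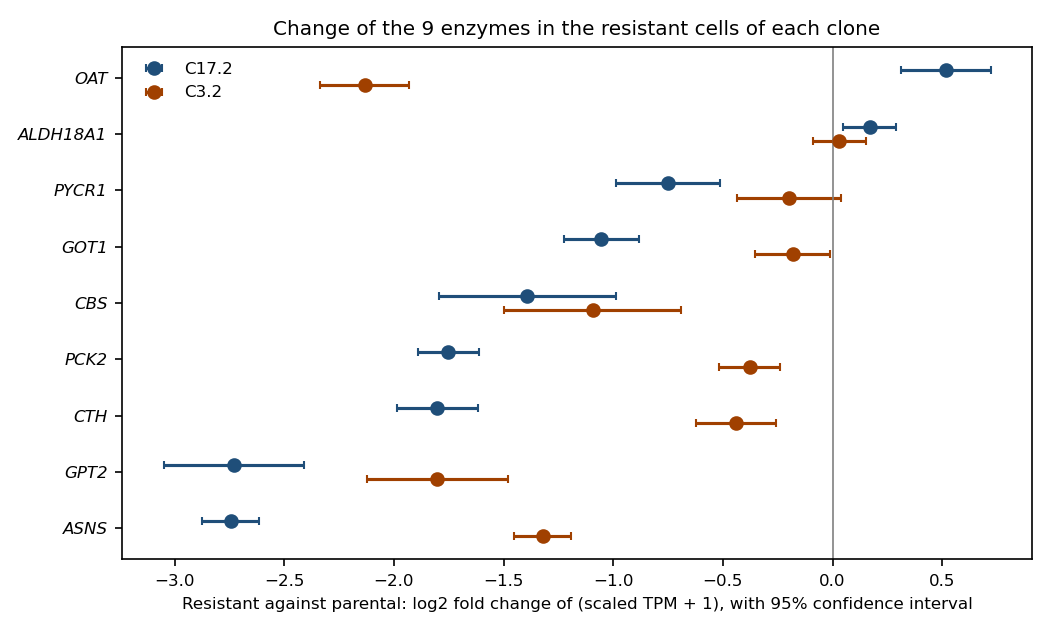
Log2 fold change of each enzyme in resistant against parental cells (horizontal axis, log2 of scaled TPM + 1) for C17.2 (blue) and C3.2 (brown), with points for the limma estimate and bars for its 95% confidence interval. In C17.2 *ASNS* and *GPT2* are lowest, at -2.74 and -2.73 with overlapping intervals, although *CBS* is lowest there with a pseudocount of 0.1, at -3.92. *OAT* has its 2 estimates on opposite sides of 0, at 0.52 and -2.13.

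*ASNS* (ENSG00000070669.17) lies on the reverse strand of chromosome 7, positions 97851677 to 97872542 of GRCh38, and its canonical transcript has 13 exons. Its level was 119 and 114 TPM in parental and 17.4 and 19.7 TPM in resistant libraries of C17.2. C3.2 had 34.5 and 35.0 TPM in parental and 14.6 and 13.4 TPM in resistant cells. The resistant cells of both clones ended at close levels, from parental levels that were 3.36-fold apart. The mean TPM was 6.30-fold lower in resistant than parental cells of C17.2 and 2.48-fold lower in C3.2. The log2 fold changes were -2.74 ± 0.054 (SE, n = 2 per group, limma, adjusted p = 6.26e-06) and -1.32 ± 0.054 (SE, n = 2 per group, limma, adjusted p = 0.000163). The fall in C17.2 exceeded that in C3.2 by 1.42 on the log2 scale (95% interval 1.24 to 1.61, limma, adjusted p = 0.000546). Of the 2286 windows of 100 bases in its canonical transcript, 2275 also occur in an overlapping readthrough RNA on the same strand, listed as AC079781.5, between which reads are hard to divide. That gene held 0.98 to 3.05 TPM, and the sum of both gave log2 fold changes of -2.69 and -1.23.

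The C/EBP-ATF response element was searched for in the reference promoters as the letters TGATGNAA on both strands, from 250 bases before to 50 bases after the start of the gene. The RefSeq promoters of GRCh38.p14 held windows for 7 of the 9 genes, with 10 windows in all because *ASNS* and *CBS* have several starts. *PYCR1* and *GPT2* had no entry. The letters occurred in 1270 of 35116 promoters of the table (3.62%) and in 2 of these 10 windows, those of *ASNS* and *GOT1*. The stretches that hold them are shown with the element in capitals, written in the direction of the gene, beside the 100 bases just before the start of *OAT*, the gene that moved in opposite directions in the clones and whose window holds no match. In *ASNS* the element covers positions -68 to -61 from the start and reads in the direction of the gene, in a stretch at chr7:97872423-97872522. In *GOT1* it covers -198 to -191 and reads on the other strand, in a stretch at chr10:99430769-99430868. The *OAT* stretch is chr10:124418924-124419023, and all 3 genes lie on the reverse strand. As with *OAT*, the windows of *ALDH18A1*, *CTH*, *CBS* and *PCK2* held no match, and *CTH*, *CBS* and *PCK2* fell in both clones. A match of letters is a description and not evidence of binding.
ASNS: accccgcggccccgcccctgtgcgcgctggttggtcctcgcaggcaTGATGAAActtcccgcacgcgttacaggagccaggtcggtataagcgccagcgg
GOT1: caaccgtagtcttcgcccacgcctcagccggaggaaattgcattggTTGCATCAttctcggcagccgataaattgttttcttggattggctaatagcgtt
OAT: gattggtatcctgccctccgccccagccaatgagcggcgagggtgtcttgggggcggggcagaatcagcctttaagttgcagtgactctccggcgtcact

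*GOT1* (ENSG00000120053.12, chromosome 10, 99396870 to 99430624), the cytosolic aspartate aminotransferase, stood at 26.1 and 23.9 TPM in C17.2 parental cells and at 11.9 and 13.9 TPM in C17.2 resistant cells. The values in C3.2 were 10.1 and 10.4 TPM in parental and 9.17 and 9.52 TPM in resistant cells. The gap between parental and resistant libraries was small in C3.2 beside that in C17.2. Its log2 fold change was -1.05 ± 0.071 (SE, n = 2 per group, limma, adjusted p = 0.000231) in C17.2 and -0.18 ± 0.071 (SE, n = 2 per group, limma, adjusted p = 0.159) in C3.2, and the difference between these was -0.87 (95% interval -1.11 to -0.63, limma, adjusted p = 0.00500). Its mitochondrial counterpart *GOT2* fell in both clones, by 0.70 (limma, adjusted p = 0.000565) and 0.37 (limma, adjusted p = 0.0156) on the log2 scale. The ratio of *GOT1* to *GOT2* within a library, which no scaling of libraries changes, was 1.29 and 1.14 in C17.2 parental and 0.860 and 1.02 in resistant cells. In C3.2 it was 0.381 and 0.372 in parental and 0.415 and 0.440 in resistant cells. It thus moved down in C17.2 and up in C3.2, with changes of the mean log2 ratio of -0.37 and 0.18. An exact two-sided permutation test of the mean change over both clones, -0.094, gave p = 0.611 (adjusted over 4 pairs of paralogs, 0.611). Opposite moves offset each other in that mean, so the test cannot judge them. Within each clone the exact permutation test gave p = 0.333, the smallest possible.

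*GPT2* (ENSG00000166123.14, chromosome 16, 46884362 to 46931289) encodes the mitochondrial alanine aminotransferase. It stood at 54.5 and 53.2 TPM in C17.2 parental and at 9.17 and 7.17 TPM in resistant cells. In C3.2 it stood at 19.3 and 20.0 TPM in parental and at 6.02 and 4.54 TPM in resistant cells. In each clone the parental libraries stood far above the resistant ones. The log2 fold change was -2.73 ± 0.13 (SE, n = 2 per group, limma, adjusted p = 7.24e-05) in C17.2 and -1.80 ± 0.13 (SE, n = 2 per group, limma, adjusted p = 0.00121) in C3.2. The difference between the clones was -0.93 (95% interval -1.38 to -0.47, limma, adjusted p = 0.0310). That call was lost when any 1 library other than C17.2 resistant 1 or C3.2 resistant 2 was left out, with adjusted p of 0.0528 to 0.117. The cytosolic form, *GPT*, was at or under 0.30 TPM in every library, too low for a firm ratio (log2 changes of *GPT2* to *GPT* of -0.57 and -2.14, exact permutation p = 0.111, adjusted 0.148).

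*PCK2* (ENSG00000100889.11, chromosome 14, 24094053 to 24110598), the mitochondrial phosphoenolpyruvate carboxykinase, links the citric acid cycle to the carbon of serine and glucose. It stood at 62.3 and 58.1 TPM in C17.2 parental and at 19.5 and 18.9 TPM in resistant cells. C3.2 had 20.3 and 22.2 TPM in parental and 16.7 and 17.1 TPM in resistant cells. The 4 resistant libraries lay between 16.7 and 19.5 TPM, below all 4 parental libraries. The log2 fold changes were -1.75 ± 0.057 (SE, n = 2 per group, limma, adjusted p = 1.97e-05) and -0.38 ± 0.057 (SE, n = 2 per group, limma, adjusted p = 0.0125), and they differed by -1.37 (95% interval -1.57 to -1.18, limma, adjusted p = 0.000661). The call in C3.2 was lost without C3.2 parental 1 (adjusted p = 0.0587, limma) or 2 (adjusted p = 0.0755, limma). The cytosolic form, *PCK1*, is listed at 0 in all 8 libraries. *NRL*, which overlaps *PCK2* on the other strand, held 2.58 to 3.78 TPM, and whether reads were counted by strand is not given in the sources used here.

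**Figure D2:**
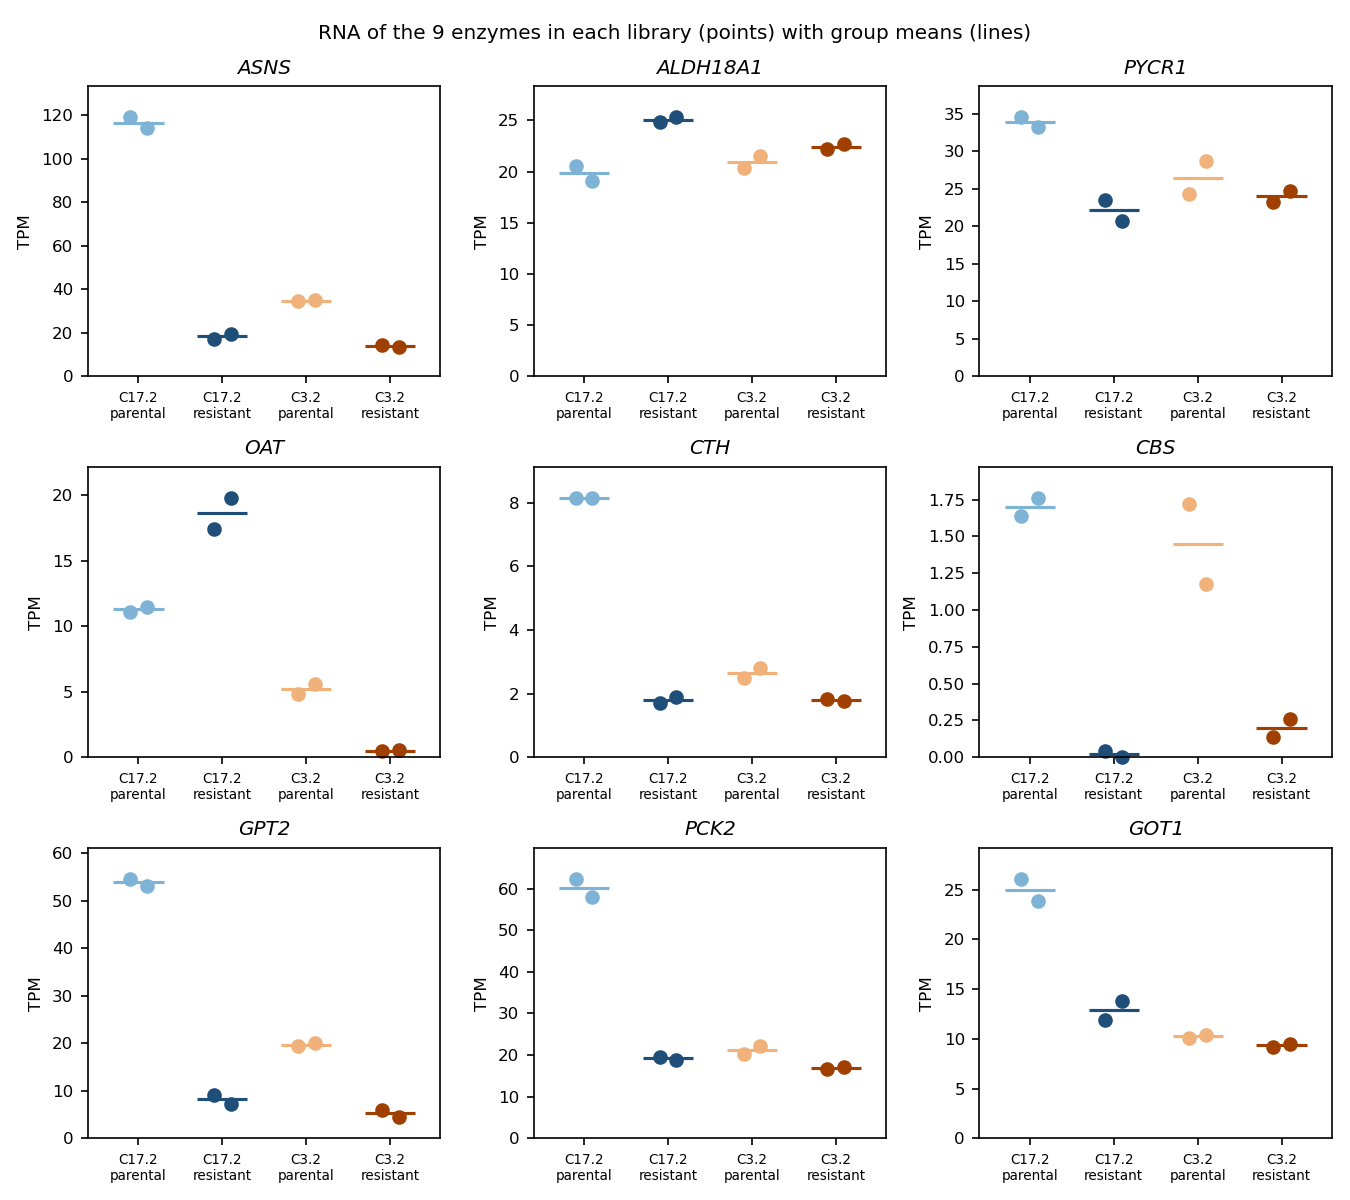
TPM of the 9 enzymes (vertical axes, each from 0) in each of the 8 libraries (points), by clone and state, with lines at the group means. In *ASNS*, *CTH*, *PCK2* and *GPT2* C17.2 parental cells stand highest, at 117, 8.13, 60.2 and 53.9 TPM on average. They are also highest on average in *PYCR1*, *GOT1* and *CBS*, at 33.9, 25.0 and 1.70 TPM. *OAT* and *ALDH18A1* are highest in C17.2 resistant cells, at 18.6 and 25.1 TPM.

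The enzymes of proline synthesis did not move together. *ALDH18A1* (ENSG00000059573.9, chromosome 10, 95605941 to 95656711), whose product catalyzes the entry from glutamate, stood at 20.6 and 19.1 TPM in C17.2 parental and at 24.8 and 25.3 TPM in resistant cells. The values in C3.2 were 20.3 and 21.6 TPM in parental and 22.2 and 22.7 TPM in resistant cells. It was the steadiest of the 9, with all 8 libraries between 19.1 and 25.3 TPM. Its log2 fold change of 0.17 ± 0.050 in C17.2 was just past the threshold (SE, n = 2 per group, limma, adjusted p = 0.0494). The call was lost on leaving out any library of C17.2 (adjusted p = 0.127 to 0.167, limma) or C3.2 parental 1 or 2 (0.0793 and 0.0780), and the estimate with TPM as deposited was 0.32. In C3.2 the log2 fold change was 0.031 (95% interval -0.090 to 0.15, limma, adjusted p = 0.742).

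*PYCR1* (ENSG00000183010.16, chromosome 17, 81932384 to 81942412), the mitochondrial reductase of the last step, stood at 34.6 and 33.2 TPM in C17.2 parental and at 23.5 and 20.8 TPM in resistant cells. In C3.2 it stood at 24.3 and 28.7 TPM in parental and at 23.2 and 24.8 TPM in resistant cells, so that the groups overlapped there. The log2 fold change was -0.75 ± 0.099 in C17.2 (SE, n = 2 per group, limma, adjusted p = 0.00280) and -0.20 ± 0.099 in C3.2 (SE, n = 2 per group, limma, adjusted p = 0.250). The clones differed by -0.55, which was not past the threshold (95% interval -0.89 to -0.21, limma, adjusted p = 0.0592). The cytosolic form of the enzyme, *PYCR3*, stood at 3.84 to 6.31 TPM and rose in C3.2 by 0.44 (limma, adjusted p = 0.0451). The gene overlaps *MYADML2*, at 0.01 TPM or below, and on the other strand the long non-coding RNAs AC145207.4, at 0 to 1.17 TPM, and AC145207.1, at 0 to 0.1 TPM, from which its reads may not have been kept apart, since the use of strand is not given. The ratio of *PYCR1* to *PYCR3* was 8.51 and 8.04 in C17.2 parental against 4.16 and 4.36 in resistant cells. In C3.2 it was 6.33 and 6.78 in parental against 3.98 and 3.93 in resistant cells. Every resistant library was thus below every parental library, with log2 changes of -0.96 and -0.73 (exact permutation within both clones p = 0.0556, the smallest this design allows, adjusted over 4 pairs of paralogs 0.148).

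*OAT* (ENSG00000065154.11, chromosome 10, 124397303 to 124418976) encodes the mitochondrial ornithine aminotransferase, which links ornithine to the precursor shared by proline and glutamate. It stood at 11.1 and 11.5 TPM in C17.2 parental and at 17.4 and 19.8 TPM in resistant cells. C3.2 had 4.84 and 5.56 TPM in parental and 0.48 and 0.53 TPM in resistant cells. The order of parental and resistant libraries was opposite in the clones. The mean TPM was 1.65-fold higher in the resistant cells of C17.2 and 10.3-fold lower in those of C3.2, so that the resistant cells of the clones stood 36.8-fold apart. The log2 fold changes were 0.52 ± 0.084 (SE, n = 2 per group, limma, adjusted p = 0.00623) and -2.13 ± 0.084 (SE, n = 2 per group, limma, adjusted p = 0.000159), and the difference of 2.65 was the largest among the 9 enzymes (95% interval 2.36 to 2.94, limma, adjusted p = 0.000288). With a pseudocount of 0.1 in place of 1, the estimate in C3.2 was -3.20.

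The genes around *OAT* were read beside it, in a window of 1 Mb on either side that was chosen after its values were seen. Of 8 tested protein-coding neighbors, 3 were called in C17.2 and 2 in C3.2. Over all tested genes, 13.9% were called lower and 13.4% higher in C17.2, and 6.9% and 4.46% in C3.2. In C17.2 *EEF1AKMT2* at 0.52 and AC068896.1 at 0.33 were called higher and *CTBP2* at -0.21 lower. The midpoint of AC068896.1, 296 kb from that of *OAT*, lies between those of *FAM53B* at 274 kb and *EEF1AKMT2* at 362 kb. Whether these genes share reads was not examined, so their calls may not be separate. The median log2 fold change of the 8 neighbors was 0.16 in C17.2 and 0.20 in C3.2. In C3.2, where *OAT* was lowest, the 8 neighbors ranged from -0.099 to 0.53, and the 2 called there, *FAM53B* at 0.46 (limma, adjusted p = 0.00627) and AC068896.1 at 0.53 (limma, adjusted p = 0.0112), were higher in resistant cells.

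**Figure D3:**
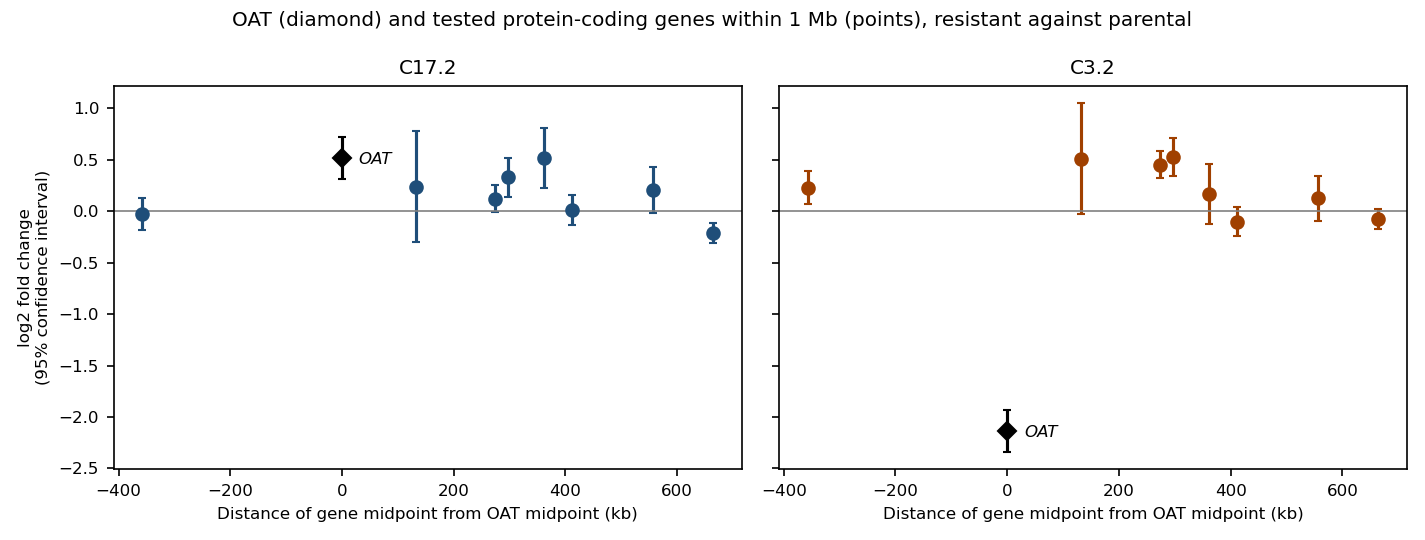
Log2 fold change in resistant against parental cells (vertical axis, with 95% confidence intervals) of *OAT* (diamond) and the 8 tested protein-coding genes whose spans lie within 1 Mb (points), by distance in kb between gene midpoints, in C17.2 (left) and C3.2 (right). In C3.2 *OAT* lies at -2.13, while no neighbor is below -0.099.

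Both genes of transsulfuration fell in both clones. *CTH* (ENSG00000116761.11, chromosome 1, 70411218 to 70439851) encodes cystathionine gamma-lyase, which releases cysteine in the last step. It stood at 8.13 and 8.14 TPM in C17.2 parental and at 1.72 and 1.88 TPM in resistant cells. The values in C3.2 were 2.50 and 2.79 TPM in parental and 1.82 and 1.76 TPM in resistant cells. The 4 resistant libraries of both clones lay between 1.72 and 1.88 TPM, and the lowest parental library was at 2.50. The log2 fold changes were -1.80 ± 0.076 (SE, n = 2 per group, limma, adjusted p = 4.63e-05) and -0.44 ± 0.076 (SE, n = 2 per group, limma, adjusted p = 0.0180), which differed by -1.36 (95% interval -1.62 to -1.10, limma, adjusted p = 0.00164). The call in C3.2 was lost without C3.2 parental 1 (adjusted p = 0.0757, limma), parental 2 (0.0942) or resistant 2 (0.0628).

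*CBS* (ENSG00000160200.17, chromosome 21, 43053191 to 43076943) encodes cystathionine beta-synthase, which joins homocysteine to serine. It stood at 1.64 and 1.76 TPM in C17.2 parental cells, and its resistant libraries are listed at 0.04 and 0 TPM. In C3.2 it stood at 1.72 and 1.18 TPM in parental and at 0.14 and 0.26 TPM in resistant cells. The 4 parental libraries were at 1.18 TPM or above, and the 4 resistant libraries at 0.26 TPM or below. The annotation holds a near-identical copy, *CBSL*, on the same chromosome at 6444869 to 6467513, and 2296 of the 2396 windows of 100 bases in the *CBS* transcript (95.8%) occur in both. The division of reads between them is therefore uncertain. *CBSL* was listed at 4.11 and 3.82 TPM in C17.2 parental, 0.01 and 0.02 in resistant, 0.82 and 1.00 in C3.2 parental and 0.04 and 0.08 in resistant cells. The sum of both genes was 5.75 and 5.58 TPM in C17.2 parental against 0.05 and 0.02 TPM in resistant cells. In C3.2 the sum was 2.54 and 2.18 TPM in parental against 0.18 and 0.34 TPM in resistant cells. The log2 fold change of the sum was -2.67 ± 0.12 (SE, n = 2 per group, limma, adjusted p = 5.89e-05) in C17.2 and -1.50 ± 0.12 (SE, n = 2 per group, limma, adjusted p = 0.00175) in C3.2. *CBS* alone gave -1.39 ± 0.17 (SE, limma, adjusted p = 0.00203) and -1.09 ± 0.17 (SE, limma, adjusted p = 0.0127), and -3.92 and -2.46 with a pseudocount of 0.1. The difference between the clones passed the threshold for the sum, at -1.17 (limma, adjusted p = 0.0127), and not for *CBS* alone, at -0.30 (95% interval -0.87 to 0.27, limma, adjusted p = 0.478). Without C3.2 parental 1 the call of *CBS* in C3.2 was lost (adjusted p = 0.0687, limma).

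**Figure D4:**
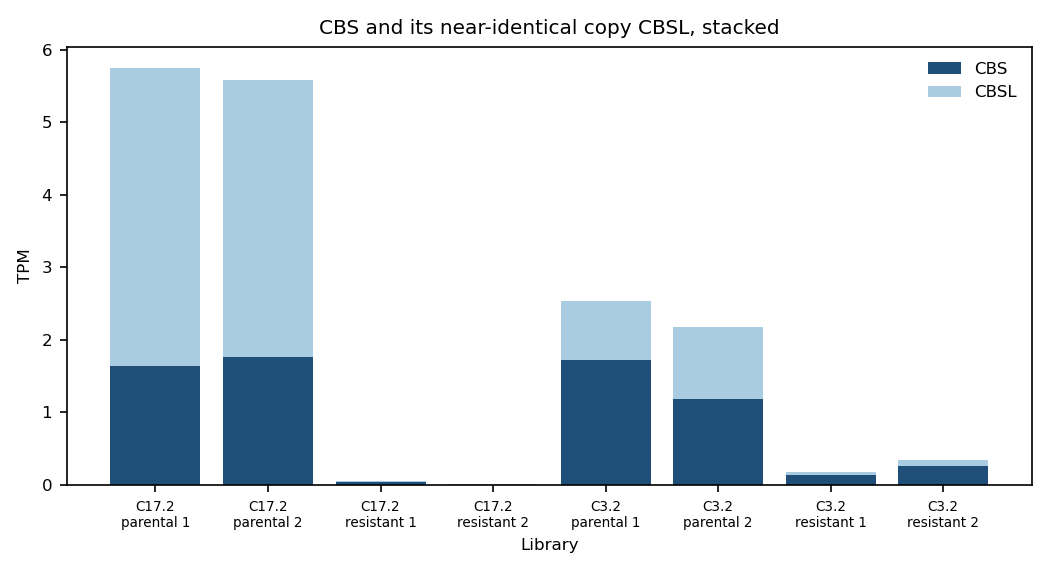
TPM of *CBS* (dark) and its near-identical copy *CBSL* (light), stacked, in each of the 8 libraries. Parental libraries reach 2.18 to 5.75 TPM for both genes together and resistant libraries at most 0.34, while the share given to *CBS* is 28.5% and 31.5% in C17.2 parental and 67.7% and 54.1% in C3.2 parental libraries.

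The order of the 9 enzymes by TPM changed with resistance. In C17.2 parental cells it ran *ASNS*, *PCK2*, *GPT2*, *PYCR1*, *GOT1*, *ALDH18A1*, *OAT*, *CTH* and *CBS*, with no overlap between neighbors in the 2 libraries. In the resistant cells of that clone *ALDH18A1* came first, ahead of *PYCR1*, and *PCK2*, *OAT* and *ASNS* followed at 17.4 to 19.8 TPM with overlapping libraries. In C3.2 parental cells *ASNS* came first, ahead of *PYCR1*, and *PCK2* and *ALDH18A1* overlapped. In C3.2 resistant cells *PYCR1* and *ALDH18A1* came first, and *OAT* had dropped to 0.51 TPM on average, below *CTH* at 1.79 TPM. Summed over the 9, the level was 338 and 323 TPM in C17.2 parental, 125 and 127 in resistant, 138 and 147 in C3.2 parental and 94.3 and 94.6 in resistant cells. *ASNS* made up 35.3% of that sum in both C17.2 parental libraries and 13.8% and 15.5% in the resistant ones, against 25.0% and 23.7% in C3.2 parental and 15.5% and 14.2% in resistant libraries. Between the clones, the parental means of *ASNS*, *CTH*, *PCK2*, *GPT2* and *GOT1* were 2.44 to 3.36 times as high in C17.2, and their resistant means 1.01 to 1.55 times. The titles of the libraries begin with running numbers, which form 1 block for each clone. Whether the blocks were handled apart is not stated, and a difference in level between clones cannot be told apart from one between the blocks, whereas each change lies within a block.

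The pathways of these enzymes hold 58 other genes, of which 39 were tested, and most of them were not called. In C17.2, 7 rose and 8 fell, and in C3.2, 4 rose and 4 fell. Of all tested genes, 13.4% were called higher and 13.9% lower in C17.2, and 4.46% and 6.9% in C3.2. The falls in both clones include that of *CBSL*, the near-identical copy of *CBS*, so not all of them are separate from the fall of *CBS*. The counts of pathway genes were not stable. With TPM as deposited, 13 rose and 5 fell in C17.2, and with C3.2 fitted alone, 1 rose and 0 fell in that clone (5 and 8 at an unadjusted p under 0.05, limma). Leaving out parental 1 or parental 2 of C17.2 left 4 that rose in that clone, and without C3.2 parental 2, 0 rose and 1 fell in C3.2 (5 and 4 at an unadjusted p under 0.05, limma). Their median log2 fold change was -0.032 in C17.2 and -0.052 in C3.2, beside 0 over all tested genes. Of 7 tested genes of asparagine and aspartate metabolism, 2 fell and 1 rose in C17.2. *AGA*, which cleaves asparagine from glycoproteins in lysosomes, stood at 14.5 TPM in both C17.2 parental libraries and at 6.39 and 4.83 TPM in resistant cells. C3.2 had 5.46 and 6.08 TPM in parental and 8.51 and 6.13 TPM in resistant cells. It fell by 1.37 in C17.2 (limma, adjusted p = 0.00163) and the clones differed by -1.60 (limma, adjusted p = 0.00946). *NIT2*, an omega-amidase, rose in both clones, by 0.57 (limma, adjusted p = 0.00353) and 0.45 (limma, adjusted p = 0.0188).

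Of 6 tested genes of proline and ornithine metabolism, 4 rose in C17.2 and none was called lower (limma, 1 at an unadjusted p under 0.05), and 1 rose in C3.2. Over all tested genes, 13.4% were called higher and 13.9% lower in C17.2, and 4.46% and 6.9% in C3.2. The highest of the 4 that rose in C17.2 was *ALDH4A1*, which forms glutamate in the breakdown of proline, at 0.33 (limma, adjusted p = 0.0256). Of 14 tested genes of methionine, transsulfuration and glutathione, 4 fell and 2 rose in C17.2, with *CBSL* by far the lowest. The division of reads between *CBSL* and *CBS* is uncertain, so this fall is not separate from that of *CBS*. *MAT2A*, which makes S-adenosylmethionine, stood at 175 to 207 TPM in the 8 libraries, with log2 fold changes of 0.00062 and -0.024 (limma, adjusted p = 0.999 and 0.720). Of 12 tested genes of glutamate and alanine metabolism, 2 fell in C17.2 and 1 in C3.2. The larger of these falls was that of *KYAT1*, a transaminase of glutamine and kynurenine, by 0.67 in C17.2 (limma, adjusted p = 0.00396).

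**Figure D5:**
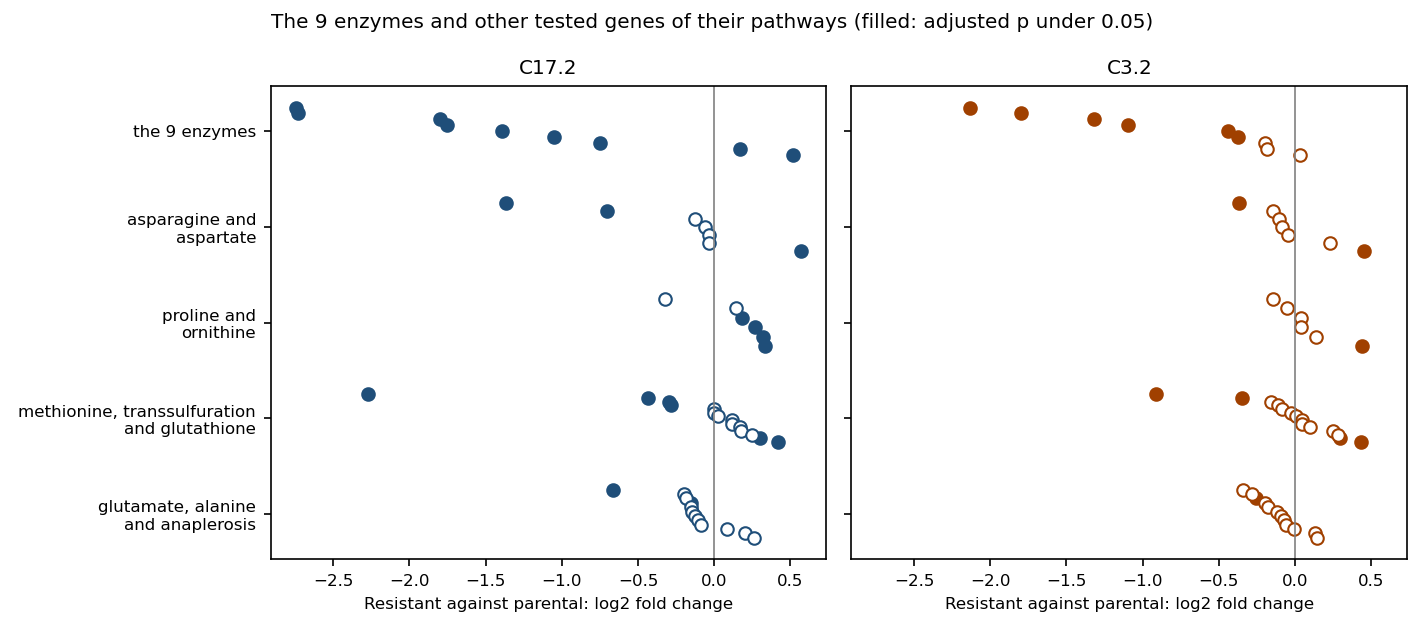
Log2 fold changes in resistant against parental cells (horizontal axis) of the 9 enzymes and of 39 other tested genes in 4 lists of their pathways, for C17.2 (left) and C3.2 (right), with 1 point per gene, filled where the adjusted p was under 0.05. The 9 enzymes reach -2.74 and -2.13 and have medians of -1.39 and -0.44, while the other genes have medians of -0.032 and -0.052. *CBSL*, the near-identical copy of *CBS*, is among the other genes.

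*ATF4* and 8 further genes of the amino acid response were read as context, a list chosen with earlier results of these data known. All 9 had negative log2 fold changes in both clones. The limma test called all 9 in C17.2 and 7 in C3.2, where *DDIT3* at -0.55 (adjusted p = 0.0640, limma) and *TRIB3* at -0.22 (adjusted p = 0.123, limma), named after their values were seen, were not called. Over all tested genes, 13.9% were called lower in C17.2 and 6.9% in C3.2. *ATF4* RNA stood at 361 and 337 TPM in C17.2 parental and 197 and 199 TPM in resistant cells. The values in C3.2 were 214 and 222 TPM in parental and 158 and 153 TPM in resistant cells. It fell by 0.97 (limma, adjusted p = 3.16e-05) and 0.55 (limma, adjusted p = 0.000875) on the log2 scale. *PHGDH* and *PSAT1*, of serine synthesis, fell by 1.90 and 2.14 in C17.2 and by 0.74 and 0.88 in C3.2. *SLC7A11*, the cystine importer, fell by 2.94 and 1.40, and *CHAC1*, which degrades glutathione, had log2 fold changes of -3.83 and -2.69. Translation of *ATF4* was not measured in these libraries.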

How the data were processed

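Total RNA depleted of ribosomal RNA was sequenced from 8 libraries, as paired-end reads by the methods of the study and single-end by the labels. The authors used Trim Galore 0.6.3, STAR 2.7.9a on hg38 and RSEM 1.3.1 with the Gencode 31 annotation, and the table they deposited holds TPM. A gene was kept if any library reached a TPM of 1. Each library was scaled to the mean library by its average log2 ratio, with the outer 30% of ratios and 5% of means removed at both ends. The scaled TPM, plus 1 and on a log2 scale, entered limma 3.58.1 (R 4.3.3) as 4 groups in 1 model with an intensity trend. Tests were two-sided with Benjamini-Hochberg adjustment over 15614 genes and a threshold of 0.05. The difference between clones is C17.2 minus C3.2. The study ran limma-voom on counts, which was not done here. No counting error is given, since TPM hides the depth. The smallest exact permutation p of 2 libraries against 2 is 0.333.

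The 9 enzymes, the lists and the markers were chosen with earlier results of these data known. Named genes were the 9 enzymes, their paralogs, context genes, and pathway genes past the threshold with an absolute log2 fold change of at least 0.5 and a mean TPM of at least 1. *ALDH4A1*, *MAT2A*, the marker genes and the neighbors of *OAT* were named after their values were seen. Results for 1 paralog are not reported here. Positions came from Gencode 44 on GRCh38, and promoters from RefSeq. In a simulation with 15614 genes, of which 200 were shifted by 1 on the log2 scale, the model recovered 59% of these and 2.48% of its calls were false. Only better expressed genes were shifted, in C17.2 resistant cells alone, whereas 4261 genes were called in that clone in the data. Each gene was given the average spread of genes of like level, which leaves out differences in spread between such genes. The 2 percentages hold for that setting only. Alternatives changed the scaling, pseudocount, filter, trend, samples and joined copies. Tables and plots used Python 3.11.15, pandas 2.3.3 and matplotlib 3.10.9.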

Additional observations from a re-analysis of the deposited data

Results flagged for a closer look

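The change in resistant cells differed between the clones for 6 of the 9 enzymes by a test of the difference itself (limma, adjusted p under 0.05), in a comparison where 9.91% of all tested genes passed. C17.2 fell further than C3.2 for 5 of them. The differences, C17.2 minus C3.2 on the log2 scale, were -1.42 for *ASNS*, -1.37 for *PCK2*, -1.36 for *CTH*, -0.93 for *GPT2* and -0.87 for *GOT1*. *OAT* differed in the other direction, by 2.65, with both resistant libraries above both parental libraries in C17.2 and below them in C3.2. Clone and mutation cannot be told apart in these differences. A constant shift on the log2 scale between the blocks of library numbers drops out of these differences. A block effect that differed between parental and resistant libraries would not.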

How the results depend on the processing

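The 7 falls and the rise of *OAT* in C17.2, the falls of *ASNS*, *OAT* and *GPT2* in C3.2, and the differences between clones of *ASNS*, *OAT*, *CTH*, *PCK2* and *GOT1* kept their direction and call in each alternative fitted, those that left out 1 library included. The rise of *ALDH18A1* in C17.2 was lost under quantile normalization (adjusted p = 0.0706, limma), a pseudocount of 0.1 (0.0509), no filter (0.0551), no trend (0.0802) and C17.2 fitted alone (0.0589), which left 1 enzyme called higher. Without C3.2 resistant 2 its estimate in C3.2 turned to -0.020 (range when leaving out 1 library in turn, -0.020 to 0.082). C3.2 fitted alone left 3 enzymes called lower, without *CTH* (0.0983), *CBS* (0.0807) and *PCK2* (0.0669). Without a filter, *CTH* in C3.2 (0.0540) and the difference of *GPT2* (0.0769) were lost. The median of the 9 in C17.2 (-1.39) was -1.70 with TPM rescaled over protein-coding genes, -1.80 with a pseudocount of 0.1 and -1.46 with the clone alone. In C3.2 (-0.44) it was -0.38 as deposited, -0.39 after quantile normalization and -0.60 with a pseudocount of 0.1. Calls over all genes in C17.2 (2167 lower, 2094 higher) became 1279 and 3849 with TPM as deposited, and those of pathway genes (8 and 7) became 5 and 13. In C3.2 (1077 lower, 696 higher) they became 523 lower as deposited, 276 and 110 with the clone alone, 1712 higher over protein-coding genes and 391 higher without a filter. Pathway genes in C3.2 (4 lower, 4 higher) became 2 lower as deposited, 0 lower and 1 higher with the clone alone (8 and 5 at an unadjusted p under 0.05, limma), 7 higher over protein-coding genes, and 2 higher without a filter or without a trend. The causes were not tested.

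Leaving out 1 library in turn gave 1 to 2 enzymes called higher in C17.2, 3 to 6 lower in C3.2 (3 without C3.2 parental 1) and 5 to 6 that differed between clones. Medians of the 9 were -1.45 to -1.33 in C17.2. Over all genes it gave 1346 to 2326 lower and 1052 to 2249 higher in C17.2, 259 to 1205 and 84 to 615 in C3.2, and 561 to 1788 that differed (1548 with all libraries). The lowest of these counts came without C17.2 parental 1 in that clone and without C3.2 parental 1 otherwise. Of pathway genes, 4 to 8 were higher in C17.2, and 1 to 5 lower and 0 to 3 higher in C3.2. Where a group kept 1 library, that library was assumed to vary like the other groups. No paired analysis was possible because the groups compared share no replicate numbers in the labels. The difference of *CBS* passed the threshold when *CBSL* was added (-1.17) and in no other alternative. The sum of *ASNS* and its readthrough was chosen after seeing the data and changed no call.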

Other observations

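The profile of the 9 enzymes over the 8 libraries, taken as the mean of their centered log2 values, was compared with those of other protein-coding genes with a mean TPM of at least 5. The closest 8 were *TESPA1* (Pearson's r = 0.997), *VLDLR* (0.996), *SYNE3* (0.996), *XAF1* (0.995), *SNRPN* (0.993), *PLCG2* (0.993), *APLP2* (0.992) and *FOXP1* (0.991). Pearson's r does not measure the size of a change. The mean TPM of these 8 was 1.16-fold (*SNRPN*) to 7.21-fold (*VLDLR*) lower in resistant cells of C17.2. In C3.2 it was 1.15-fold (*TESPA1*) to 5.31-fold (*VLDLR*) lower. The closest gene, *TESPA1*, was only 1.21-fold lower in C17.2. *VLDLR*, a lipoprotein receptor, stood at 22.0 and 20.3 TPM in C17.2 parental, 2.77 and 3.10 in resistant, 6.37 and 6.81 in C3.2 parental and 1.26 and 1.22 in resistant cells. Of 8558 such genes, 329 (3.84%) had an r of at least 0.9. Each of the 9 is itself part of the mean, and their own r ran from 0.985 for *ASNS* and 0.982 for *GPT2* to 0.728 for *PYCR1*, 0.554 for *OAT* and -0.826 for *ALDH18A1*. The 8 points share 2 clones and 2 states, so these values are a description.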
